A study of Mus musculus with 6 samples.

Results

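Skeletal muscle fibres are fast or slow according to the isoforms of contractile and metabolic genes they transcribe, and a small set of transcription regulators sets that choice. The 9 genes described here belong to that set: Six4, Eya1, Eya4, Sox6, Prox1, Tbx15, Vgll2, Nfatc1 and Rcan1. They were taken by symbol from the 49315 genes of the deposited tables, each matched 1 Ensembl gene, and all 9 were among the 16650 genes that passed the low-count filter. The series profiled gastrocnemius, the large calf muscle, by RNA sequencing in mice of a mixed C57BL/6 and 129 strain at 3 months of age. It holds 3 libraries labelled WT and 3 labelled mKO, from mice that lack Hnrnpu in muscle. The product of Hnrnpu binds RNA in the nucleus and acts in chromatin organisation and splicing. The promoter that drives the deletion, the deleted exons and any allele carried by the WT mice were not given in the sources used here. No label ties a replicate to an animal. The p-values therefore rest on the spread among these 6 libraries, part of which may be technical.

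Six4 and its relatives are homeodomain factors that bind the MEF3 element, and Eya proteins are their coactivators and also phosphatases. Together they switch on the fast glycolytic programme. Sox6 represses slow-fibre genes in fast fibres, and Tbx15 is a T-box factor enriched in glycolytic fibres. Prox1 is a homeodomain factor that supports the slow programme, and Vgll2 is a muscle cofactor of the TEAD factors. Nfatc1 carries the signal of the calcium-activated phosphatase calcineurin to the nucleus in slow, tonically active fibres, and Rcan1, an inhibitor of calcineurin, is itself induced by that pathway.

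Library totals ranged from 32108684 to 42344238 counts. Hnrnpu itself had 239 ± 7.59 CPM in WT and 208 ± 2.92 CPM in mKO libraries (SD, n = 3; log2 -0.20, SE 0.10, edgeR adjusted p = 0.147), a count over all exons that does not check the deletion. With library totals, the scaling described next, its direction turned and it was called higher (log2 0.27, adjusted p = 0.0402). CPM is the read count relative to library size, here scaled by TMM, a factor that centres the bulk of genes between libraries, and log2 fold changes are mKO over WT with the standard error (SE). Scaling mattered in this comparison: when library totals replaced the TMM factors, the median log2 change over all genes moved up by 0.465. A direction given without a scaling is that of the TMM fit. A gene was called at an adjusted p under 0.05 in edgeR's quasi-likelihood test over all 16650 genes. Each adjusted p below comes from that kind of test, refitted where library totals or a left-out library are named. Fits with a library left out were adjusted over the genes that passed the filter in that fit. Skeletal muscle markers were abundant in every library, with a summed level of Acta1, Ckm, Ttn, Des, Neb, Mylpf and Tnnt3 of 253975 to 265396 CPM in WT and 176130 to 210307 CPM in mKO libraries. In bulk muscle, fewer cells of a type and less RNA per cell cannot be told apart.

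Of the 9 regulators, 4 fell (Eya1, Eya4, Sox6 and Tbx15, of which only Sox6 was lower with library totals too), 3 rose (Prox1, Vgll2 and Nfatc1) and 2 were not called (Six4 and Rcan1). Across all genes tested, 37.0% were called, 18.2% higher and 18.9% lower. The size of the called changes was modest, from 1.34-fold lower for Eya1 to 1.76-fold lower for Sox6 and from 1.40-fold higher for Nfatc1 to 1.85-fold higher for Vgll2. The groups did not overlap for 7 of the 9, against 49.3% of all genes tested. For each of those 7 an exact permutation test (two-sided) gave 0.1, its lowest possible p with 3 against 3 libraries. The 9 were chosen with earlier results of these data known, so their counts beside the shares of all genes are not a test.

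**Figure D1:**
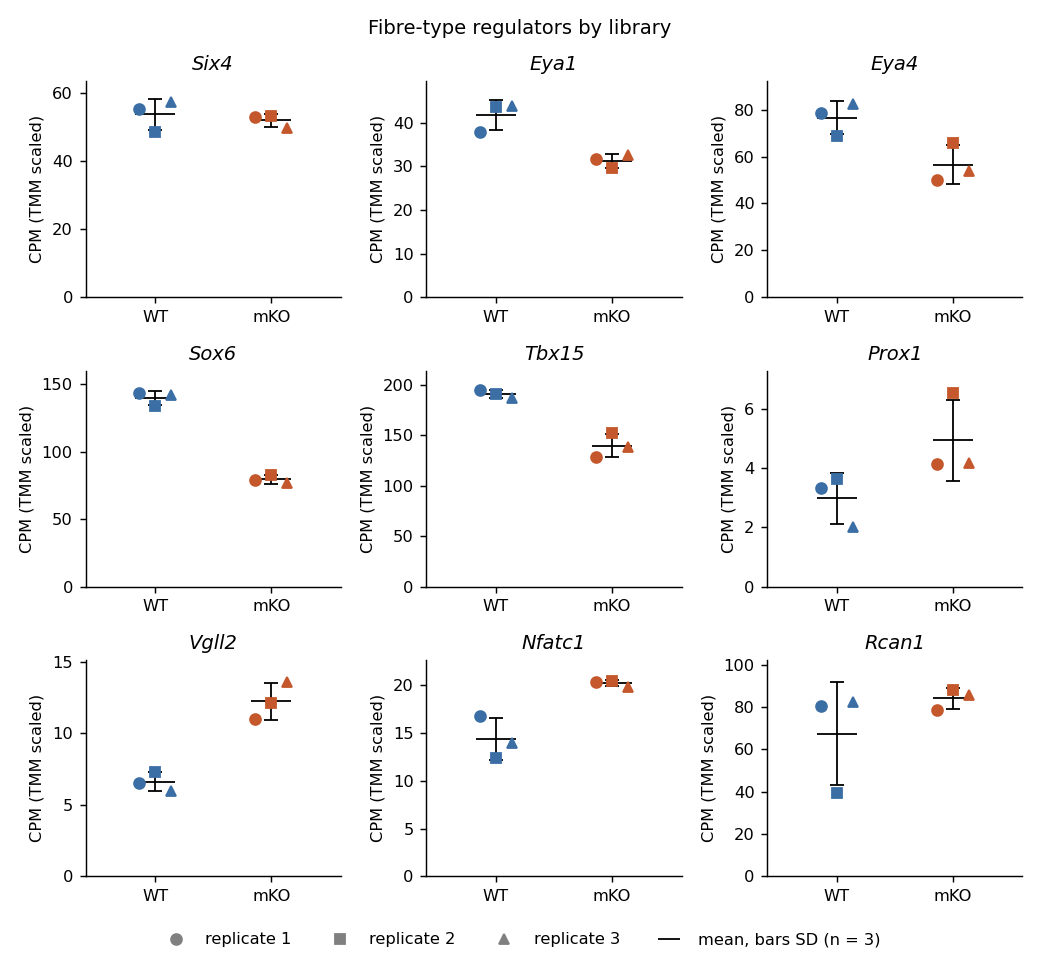
CPM (TMM scaled, linear axes from 0) of the 9 regulators in each library, with marker shapes for replicates and black bars for the mean and SD of 3 libraries. Sox6 sits at 134 to 143 CPM in WT and 76.5 to 82.9 CPM in mKO, whereas 1 WT library of Rcan1 lies at 39.3 CPM, below the 5 others. With library totals the direction of Eya1, Eya4, Tbx15 and Six4 turns.

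With library totals, 5 regulators were called higher and 1 lower, while over all genes the share called moved to 55.8%, 49.0% higher and 6.75% lower. Sox6 was the member still lower (log2 -0.35, adjusted p = 0.013). Eya1, Eya4 and Tbx15 turned to log2 values of 0.05, 0.03 and 0.02 and were not called, and Six4 (0.42, adjusted p = 0.00644) and Rcan1 (0.78, adjusted p = 0.00788) were called higher. Prox1, Vgll2 and Nfatc1 were higher under both scalings. Ratios between genes do not depend on library scaling. The pairs given here and below were chosen after the values were seen. Relative to Six4 counts, Sox6 had a ratio of 2.61 ± 0.136 in WT and 1.53 ± 0.0381 in mKO libraries (SD, n = 3), and Vgll2 had 0.124 ± 0.0235 and 0.236 ± 0.0327. The log2 change of the ratio to Six4 was -0.37 for Eya1, -0.39 for Eya4, -0.40 for Tbx15, -0.77 for Sox6, 0.44 for Rcan1, 0.55 for Nfatc1, 0.79 for Prox1 and 0.93 for Vgll2. None of these 8 ratios overlapped between groups, and this holds whatever the scaling. The choice of Six4 as reference sets their values, however. Six4 had log2 -0.05 with TMM, so the ratios stay close to the TMM changes and are no separate check of them. How often the ratios of other genes to Six4 separate was not counted. Some gaps were narrow. The closest Rcan1 ratios were 1.45 in WT replicate 1 and 1.49 in mKO replicate 1. For Eya1 they were 0.684 in WT replicate 1 and 0.655 in mKO replicate 3. For Prox1 they were 0.0745 in WT replicate 2 and 0.0782 in mKO replicate 1.

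**Figure D2:**
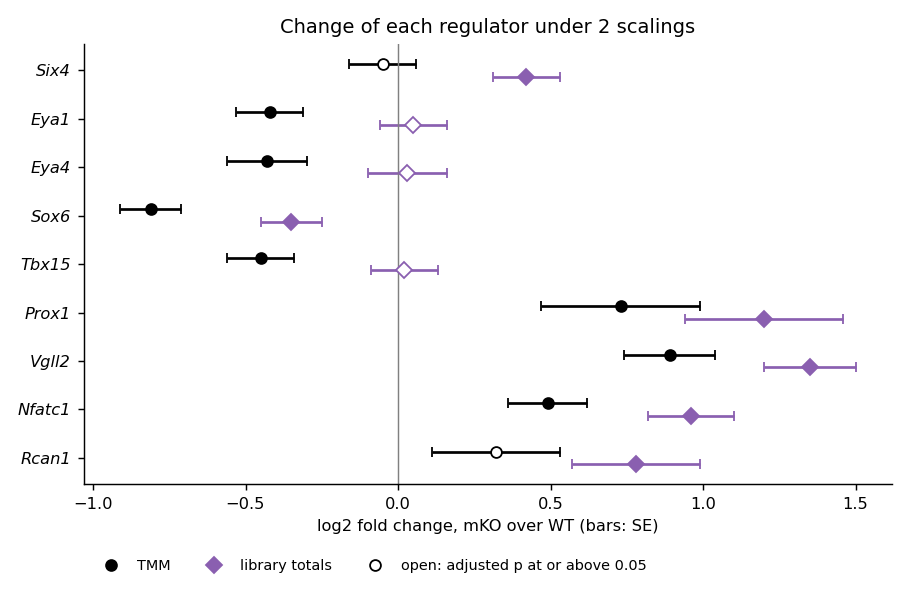
Log2 fold change, mKO over WT, of each regulator with TMM factors (black circles) and with library totals (purple diamonds); bars are SE and open symbols were not called. Sox6 is called lower and Prox1, Vgll2 and Nfatc1 are called higher under both scalings, while Eya1, Eya4 and Tbx15 move from below 0 to 0.02 to 0.05.

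Compared per kilobase of exon (RPKM), the regulators spanned a wide range of levels. In WT libraries Tbx15 led at 50.9 ± 1.02 RPKM, followed by Rcan1 at 26.9 ± 9.72, Eya4 at 18.3 ± 1.69 and Sox6 at 9.41 ± 0.357 RPKM (SD, n = 3). Eya1 (5.34 ± 0.429), Six4 (4.95 ± 0.422) and Vgll2 (4.51 ± 0.448 RPKM) stood close together, and each overlapped its neighbour in the order. Rcan1 and Eya4 overlapped too, through the low Rcan1 value of WT replicate 2. Nfatc1 (1.93 ± 0.3) and Prox1 (0.355 ± 0.101 RPKM) were the least abundant. In mKO libraries Vgll2 stood at 8.35 ± 0.866 RPKM, above Sox6 at 5.35 ± 0.218, Six4 at 4.79 ± 0.171 and Eya1 at 4 ± 0.2 RPKM, with no overlap between these neighbours. In WT that order was Sox6, Eya1, Six4, Vgll2. Tbx15 (37.4 ± 3.13) and Rcan1 (33.6 ± 1.95 RPKM) overlapped in mKO libraries.

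**Figure D3:**
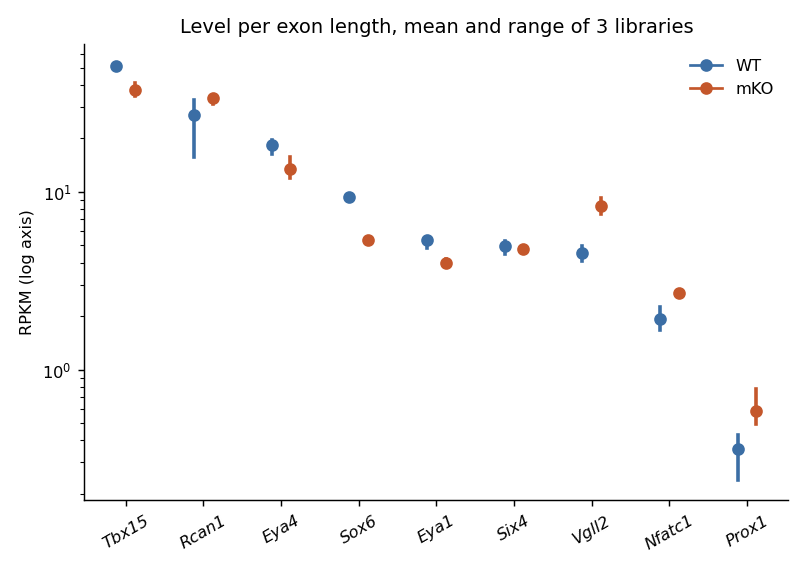
Level per exon length in RPKM on a log axis, with the mean (point) and the range of 3 libraries (line) for WT in blue and mKO in orange, ordered by the WT mean. The regulators run from 50.9 RPKM for Tbx15 down to 0.355 RPKM for Prox1 in WT libraries, and Vgll2 moves from below Six4 to above Sox6.

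Six4 (ENSMUSG00000034460; GRCm38 chr12:73099609-73113456, minus strand) did not differ beyond the spread between libraries. The WT replicates 1 to 3 had 55.3, 48.6 and 57.3 CPM, against 52.9, 53.1 and 49.8 CPM in the mKO replicates. The mKO values all lie within the WT range (log2 -0.05, SE 0.11, adjusted p = 0.755; with library totals the value turned to 0.42). A window upstream of an internal RefSeq start of Six4 (GRCm38.p6) carries the letters of the MEF3 element, TCAGGTT, on the opposite strand. They lie in the 5′ UTR of the first exon in GENCODE M21, and are shown in capitals with their flanks because this element is the one that Six4 and its relatives bind.
Six4 MEF3, chr12:73113324-73113353, minus strand: ggcctgggggaAACCTGAtcggccagatcc
The element was found on either strand in 3.49% of 32851 windows of 250 bases upstream of RefSeq starts. The match is a description, not a binding site shown by these data. The motifs and window length here and below were settled after the members' windows had been looked at.

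Eya1 (ENSMUSG00000025932; GRCm38 chr1:14168954-14310235, minus strand) had 37.8, 43.6 and 43.7 CPM in WT replicates 1 to 3 and 31.6, 29.5 and 32.6 CPM in mKO replicates 1 to 3. All mKO libraries were below all WT libraries, and the gene fell to 74.9% of WT (log2 -0.42, SE 0.11, adjusted p = 0.00883), a fall not seen with library totals (0.05). Eya4 (ENSMUSG00000010461; GRCm38 chr10:23104168-23349895, minus strand) had 78.7, 68.6 and 82.3 CPM in WT and 49.9, 65.9 and 54.0 CPM in mKO replicates 1 to 3. Here mKO replicate 2 came close to WT replicate 2, and the fall to 74.0% of WT (log2 -0.43, SE 0.13, adjusted p = 0.0178) turned to 0.03 with library totals. The call for Eya4 also ended without WT replicate 3 (adjusted p = 0.0656), mKO replicate 1 (0.0739) or mKO replicate 3 (0.0772), with log2 values of -0.38, -0.35 and -0.40.

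The other Eya, Dach and Six4-related genes went both ways. Of the 6 listed besides Six4, Eya1 and Eya4, 2 fell and 1 rose, with a median log2 change of -0.31 against 0.02 over all genes tested. With library totals 2 fell and 1 rose too. The shares over all genes were 18.9% lower and 18.2% higher, and 6.75% and 49.0% with library totals. Eya3, the broadly expressed Eya gene, went the other way from Eya1 and Eya4: its WT replicates had 9.85, 13.1 and 8.76 CPM and its mKO replicates 17.3, 18.8 and 18.1 CPM (log2 0.77, SE 0.15, adjusted p = 0.00166). The ratio of Eya3 to Eya1 counts, which no scaling changes, was 0.254 ± 0.0503 in WT and 0.58 ± 0.0489 in mKO libraries (SD, n = 3). Six2, at low level, fell from 3.1 ± 0.487 to 1.1 ± 0.214 CPM (SD, n = 3; log2 -1.49, adjusted p = 0.000561). Dach2, a corepressor of the same network, had 4.44, 7.14 and 9.57 CPM in WT and 0.551, 0.516 and 0.351 CPM in mKO replicates 1 to 3, 14.7-fold lower. Dach1 (log2 -0.55, adjusted p = 0.0603), Six5 (-0.07, adjusted p = 0.869) and Eya2 (0.06, adjusted p = 0.91) were not called.

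**Figure D4:**
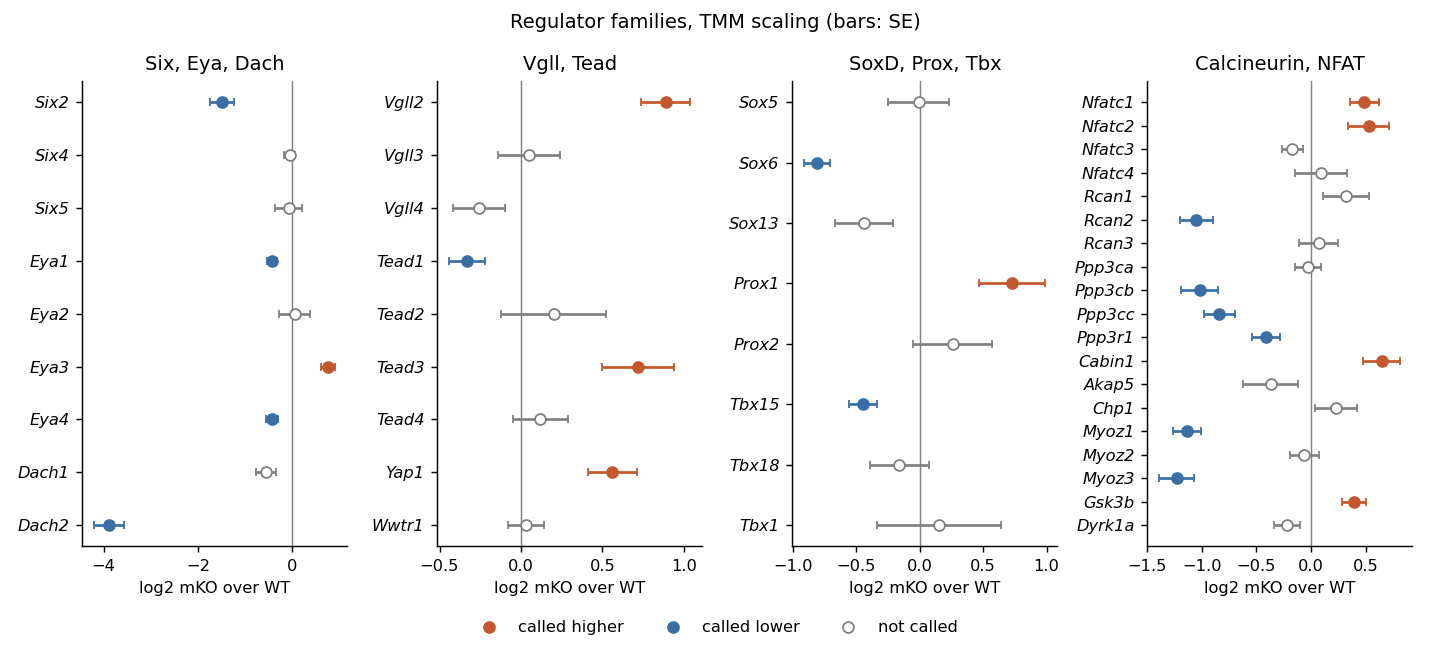
Log2 fold change with TMM scaling (mKO over WT, bars SE) of the genes listed in 4 regulator families; orange and blue points were called higher and lower, open points were not called. Within each family members lie on both sides of 0: Eya3 at 0.77 against Eya1 at -0.42, and Nfatc1 at 0.49 against Ppp3cb at -1.02. With library totals the called genes Eya1, Eya4, Tbx15, Tead1 and Ppp3r1 turn to values above 0. Several genes shown open, among them Six4, Vgll4 and Nfatc3, turn as well.

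Sox6 (ENSMUSG00000051910; GRCm38 chr7:115470872-116038796, minus strand) showed the largest fall among the 9. WT replicates 1 to 3 had 143, 134 and 142 CPM, and mKO replicates 1 to 3 had 78.7, 82.9 and 76.5 CPM. The groups were far apart relative to their spread, with means of 140 ± 5.3 and 79.4 ± 3.23 CPM (SD, n = 3). Sox6 fell to 56.9% of WT (log2 -0.81, SE 0.10, adjusted p = 6.98e-05). It was called lower under each alternative fit. The antisense gene Sox6os, whose exons do not overlap those of Sox6, had 41 to 92 counts per library. The related genes Sox5 (log2 -0.01, adjusted p = 0.988) and Sox13 (-0.44, adjusted p = 0.16) of the same SoxD group were low, at 2.96 ± 0.855 and 2.16 ± 0.204 CPM in WT, and were not called.

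In muscle, Sox6 mRNA is a known target of the miRNAs miR-499-5p and miR-208b-3p, which lie in introns of the slow and cardiac myosin genes Myh7b and Myh7. Their mature sequences (RefSeq, GRCm38.p6) are printed with the seed, bases 2 to 8, in capitals, since the seeds share their first 6 bases and differ in the last. The stretch of the Sox6 3′ UTR (GENCODE, GRCm38) is shown because it holds a match to both, in capitals, read from the mRNA strand.
mmu-miR-499-5p, chr2:155622893-155622913, plus strand: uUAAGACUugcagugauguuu
mmu-miR-208b-3p, chr14:54975710-54975731, minus strand: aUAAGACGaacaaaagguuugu
Sox6 3′ UTR site, chr7:115476626-115476655, minus strand: ctctgcccatcgcCGTCTTAtgAGTCTTAc
The 3′ UTR of 6046 bases held 3 matches of miR-499-5p (AGTCTTA) and 1 match of miR-208b-3p (CGTCTTA). Among 635 3′ UTRs within 20% of that length, 39.7% had at least 1 match of the first and 1.26% had 3 or more, and 5.67% had a match of the second. Neither miRNA was measured by these libraries: the rows of Mir499 and Mir208b held 0 counts in all 6. The host gene Myh7b had 1.10 ± 0.448 CPM in WT and 0.886 ± 0.631 CPM in mKO libraries (adjusted p = 0.677). Myh7 varied more between libraries than between groups, with 159, 126 and 36.6 CPM in WT and 38.6, 360 and 45.1 CPM in mKO replicates 1 to 3 (adjusted p = 0.639).

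Tbx15 (ENSMUSG00000027868; GRCm38 chr3:99240381-99354259, plus strand) had the smallest WT spread relative to its level among the 9. The WT replicates 1 to 3 had 195, 191 and 187 CPM and the mKO replicates 129, 152 and 139 CPM. Every mKO library was below every WT library, and Tbx15 fell to 73.5% of WT (log2 -0.45, SE 0.11, adjusted p = 0.00602), but not with library totals, where the value was 0.02. Tbx18, a T-box gene of stromal cells, had 3.41 ± 0.782 and 3.05 ± 0.438 CPM (SD, n = 3; log2 -0.16, adjusted p = 0.622). Of the 8 listed SoxD, Prox and Tbx genes, the 3 called were the members themselves, and no other gene of the list was called (0 of 5). Over all genes tested 37.0% were called. The members and the list were chosen with earlier results of these data known. Those 5 genes were also low, with WT means of at most 3.41 CPM. Tbx15 is also transcribed in fibro-adipogenic and adipose cells. The summed level of 6 fibro-adipogenic markers (Pdgfra, Dcn, Lum, Col1a1, Col3a1 and Dpt) was higher in mKO libraries, at 2102 to 2375 CPM against 1668 to 1829 CPM in WT, with 2 of 6 higher and none lower. The 2 were Col3a1 (487 ± 41.5 to 1022 ± 142 CPM) and Col1a1 (106 ± 36.4 to 177 ± 70.1 CPM). Pdgfra (log2 0.05), Dcn (-0.22), Lum (0.39) and Dpt (0.21) were not called. Over all genes 18.2% were called higher and 18.9% lower. With library totals 5 of these 6 markers were higher, beside 49.0% of all genes (6.75% lower). The 6 adipocyte markers summed to 96.3 to 157 CPM in WT and 85.6 to 136 CPM in mKO libraries, with 1 lower, and none with library totals. Their part in the Tbx15 value was not tested.

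Prox1 (ENSMUSG00000010175; GRCm38 chr1:190118035-190170714, minus strand) was the least abundant of the 9, with 72 to 290 counts per library. WT replicates 1 to 3 had 3.31, 3.62 and 2.01 CPM, against 4.14, 6.51 and 4.16 CPM in mKO replicates 1 to 3. The lowest library was WT replicate 3 and the highest mKO replicate 2. Prox1 rose 1.66-fold (log2 0.73, SE 0.26, adjusted p = 0.0401), and the call ended without WT replicate 3 (log2 0.51, adjusted p = 0.154) or without mKO replicate 2 (0.49, adjusted p = 0.188). The antisense gene Prox1os shares 133 bp of exon with Prox1 and had 0 counts in every library. Prox2 was close to the detection limit (0.964 ± 0.154 and 1.15 ± 0.216 CPM, SD, n = 3; log2 0.26, adjusted p = 0.558).

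The same 2 libraries stood at the ends of several slow-fibre genes, a comparison chosen after the values were seen. Tnni1, the slow troponin I gene, had 26.5, 19.7 and 11 CPM in WT and 38.5, 60.8 and 24.5 CPM in mKO replicates 1 to 3. Atp2a2, the slow and cardiac calcium pump gene, had 110, 89.8 and 59.8 CPM and then 135, 220 and 112 CPM. Tnnt1, the slow troponin T gene, was lowest in WT replicate 3 (26.6 CPM) and highest in mKO replicate 2 (226 CPM), as was Prox1. Myh7 had the same lowest and highest library, as had Tnnc1, Tpm3 and Myl6b of the slow-programme genes listed below. The others of that list, Casq2, Csrp3, Myh7b, Myl2, Myl3 and Mb, did not, and Myl2, Myl3 and Mb were highest in a WT library. Prox1 is also a marker of lymphatic endothelium and is present in satellite cells. The marker counts that follow stand beside 18.2% of all genes called higher and 18.9% lower (49.0% and 6.75% with library totals). Of 6 lymphatic markers (Lyve1, Flt4, Pdpn, Ccl21a, Mmrn1 and Reln), Ccl21a had 0 counts, 1 was higher and 1 lower (1 and 0 with library totals), and the sum was 43.2 to 45.8 CPM in WT and 36.1 to 51.5 CPM in mKO libraries. Satellite cell markers (Pax7, Myf5, Calcr, Chodl, Cdh15 and Cd34) summed to 97.7 to 114 CPM and 98.5 to 118 CPM, with 1 of 6 higher and 1 lower, and 3 higher and none lower with library totals. Cd34 made up most of this sum, at 82.9 ± 5.24 CPM in WT and 79.6 ± 10.8 CPM in mKO libraries. Pax7 was the marker that rose (log2 0.91, adjusted p = 0.0396) and Calcr the one that fell (-1.39, adjusted p = 0.0213). The part of fibre composition or of these cells in the Prox1 value was not tested.

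**Figure D5:**
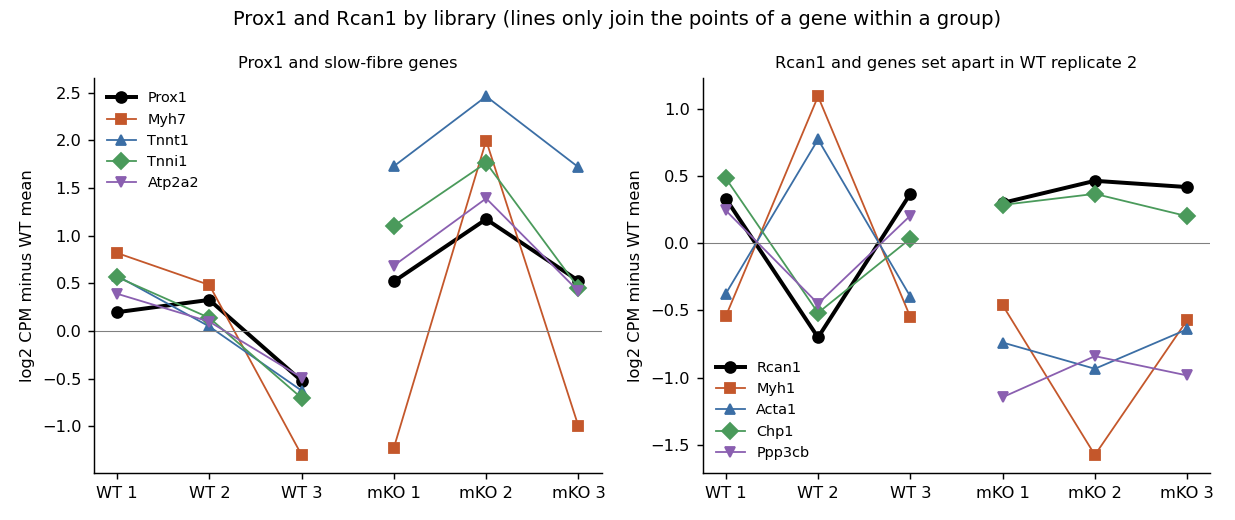
Log2 CPM minus the WT mean in each of the 6 libraries for Prox1 with 4 slow-fibre genes (left) and for Rcan1 with 4 genes that stand apart in WT replicate 2 (right), all chosen after their values were seen. Prox1 is highest in mKO replicate 2 (6.51 CPM) and lowest in WT replicate 3 (2.01 CPM), and Rcan1 is lowest in WT replicate 2 (39.3 CPM).

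Vgll2 (ENSMUSG00000049641; GRCm38 chr10:52022686-52028471, plus strand) showed the largest rise of the 9. Its counts gave 6.55, 7.30 and 5.99 CPM in the WT replicates and 11, 12.1 and 13.6 CPM in the mKO replicates. No mKO library came near the WT range, and the means were 6.61 ± 0.657 and 12.2 ± 1.27 CPM (SD, n = 3; log2 0.89, SE 0.15, adjusted p = 0.000505). Vgll2 was called higher under each alternative fit. The related cofactor genes Vgll3 (log2 0.05, adjusted p = 0.847) and Vgll4 (-0.26, adjusted p = 0.225) were not called. Of 9 Vgll, Tead and coactivator genes, 3 rose and 1 fell, with a median log2 change of 0.12, beside 18.2% higher and 18.9% lower over all genes. With library totals 6 rose and none fell, beside 49.0% and 6.75% over all genes. Tead1, the main TEAD factor here by counts, had 244, 246 and 233 CPM in WT and 169, 195 and 210 CPM in mKO replicates 1 to 3, a fall to log2 -0.33 (adjusted p = 0.0361) that turned to 0.13 with library totals. Tead3 rose from 2.42 ± 0.603 to 4 ± 0.221 CPM (log2 0.72, adjusted p = 0.0203), and Yap1, a coactivator that shares the TEAD factors with Vgll proteins, rose from 29.5 ± 7.64 to 43.6 ± 0.893 CPM (log2 0.56, adjusted p = 0.012). The ratio of Vgll2 to Tead1 counts was 0.0274 ± 0.00207 in WT and 0.064 ± 0.00151 in mKO libraries (SD, n = 3). Without WT replicate 1 or WT replicate 3, 1 gene of the 9 was called higher and none lower, and none was lower without mKO replicate 1 or mKO replicate 2.

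The sequence upstream of the RefSeq start of Vgll2 (GRCm38.p6), which lies before the annotated gene, is shown because Vgll2 had the largest rise. Capitals mark the NFAT core GGAAA on either strand.
Vgll2 upstream, chr10:52022252-52022501, plus strand: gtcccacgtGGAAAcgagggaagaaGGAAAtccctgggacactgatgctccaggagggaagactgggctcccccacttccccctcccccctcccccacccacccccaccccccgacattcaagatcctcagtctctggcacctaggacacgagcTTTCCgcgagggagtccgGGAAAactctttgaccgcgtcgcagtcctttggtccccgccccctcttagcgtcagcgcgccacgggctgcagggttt
It holds 4 such cores. At least 1 is found in 55.6% of windows of this length and at least 4 in 1.59%. No match was found in it for MEF3 (TCAGGTT), MEF2, the TEAD element MCAT (CATTCC), AP-1 (TGANTCA), CRE (TGACGTCA), SOX (AACAAT and ACAAAG), T-box (AGGTGT) or the E-box CAGCTG, which says only that these letters are not in this window.

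Nfatc1 (ENSMUSG00000033016; chromosome 18) had 16.8, 12.4 and 13.9 CPM in WT replicates 1 to 3 and 20.3, 20.4 and 19.8 CPM in mKO replicates 1 to 3. The mKO libraries were close together and all above WT, with means of 14.4 ± 2.23 and 20.2 ± 0.343 CPM (SD, n = 3). Nfatc1 rose 1.40-fold (log2 0.49, SE 0.13, adjusted p = 0.0111). Nfatc2 rose as well, from 5.46 ± 1.09 to 7.89 ± 1.01 CPM (log2 0.53, adjusted p = 0.0388). Nfatc3, the most abundant NFAT gene by counts, had 31.3, 35.7 and 32.4 CPM in WT and 28.5, 29.7 and 30 CPM in mKO replicates 1 to 3 and was not called (log2 -0.17, adjusted p = 0.221; with library totals 0.29, adjusted p = 0.0301). Nfatc4 had log2 0.09 (adjusted p = 0.798). The ratio of Nfatc1 to Nfatc3 counts was 0.438 ± 0.095 in WT and 0.686 ± 0.0267 in mKO libraries (SD, n = 3), with no overlap. This pair was chosen after the values were seen, and how often other pairs separate was not counted. Nfatc1 and Nfatc2 are also transcribed in blood and endothelial cells. Macrophage markers (Csf1r, Adgre1, Cd68, Ptprc, C1qa and Mrc1) were higher in mKO libraries in 6 of 6, with sums of 140 to 154 CPM in WT and 275 to 371 CPM in mKO. Endothelial markers (Pecam1, Cdh5, Kdr, Tek, Emcn and Vwf) were lower in 5 of 6 and in 2 of 6 with library totals, with sums of 239 to 310 CPM and 156 to 169 CPM. Beside these counts, 18.2% of all genes were called higher and 18.9% lower (49.0% and 6.75% with library totals). T-cell markers were near 0, with Cd3e, Cd3d, Cd3g, Cd4, Cd8a and Lck together at 0.196 to 0.401 CPM in WT and 0.808 to 0.969 CPM in mKO libraries. The part of these cells in the Nfatc1 value was not tested.

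Rcan1 (ENSMUSG00000022951; GRCm38 chr16:92391953-92466146, minus strand) was not called. The WT replicates had 80.5, 39.3 and 82.5 CPM, against 78.7, 88.2 and 85.4 CPM in the mKO replicates. WT replicate 2 stood far below the 5 other libraries, which lay between 78.7 and 88.2 CPM. The log2 change was 0.32 (SE 0.21, adjusted p = 0.268) and 0.04 without WT replicate 2 (adjusted p = 0.794). That library also had, in a comparison chosen after the values were seen, the highest Myh1 (8906 CPM against 2861 and 2852 in WT replicates 1 and 3) and Acta1 (15725 against 7090 and 6990 CPM), and the lowest WT values of Chp1, a calcineurin-like calcium-binding protein gene (28.3 against 56.7 and 41.5 CPM), and Ppp3cb (92.7 against 150 and 146 CPM). What sets WT replicate 2 apart was not tested. Rcan1 is transcribed from a distal and an internal start, and the internal start is the one known to respond to calcineurin and NFAT. The deposited counts add both, so the transcripts could not be told apart.

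The sequence upstream of the internal start (RefSeq, GRCm38.p6), intronic in the longer transcripts, is shown for that reason. Capitals mark the NFAT core GGAAA, the CRE TGACGTCA and the AP-1 element TGANTCA on either strand, none of which overlap.
Rcan1 internal start, chr16:92400079-92400328, minus strand: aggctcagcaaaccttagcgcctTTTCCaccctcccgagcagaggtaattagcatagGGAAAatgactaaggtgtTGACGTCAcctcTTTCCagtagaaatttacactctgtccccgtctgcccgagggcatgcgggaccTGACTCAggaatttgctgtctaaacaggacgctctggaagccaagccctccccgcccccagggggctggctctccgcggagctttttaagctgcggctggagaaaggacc
It holds 3 NFAT cores, 1 CRE and 1 AP-1 element, and the window of the distal start holds none of them. A T-box match (AGGTGT), in lower case here, was also found, as in 11.8% of windows. Of all windows of this length, 6.39% hold at least 3 NFAT cores, 1.55% a CRE and 6.75% an AP-1 element.

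The calcineurin and NFAT genes went both ways. Of 19 genes of the calcineurin and NFAT list, 6 fell and 4 rose, with a median log2 change of -0.06 against 0.02 over all genes. With library totals 5 fell and 10 rose. Over all genes 18.9% were called lower and 18.2% higher, and 6.75% and 49.0% with library totals. Rcan2, a paralog of Rcan1 abundant in muscle, had 82.2, 106 and 91.7 CPM in WT and 52.6, 35.5 and 47.4 CPM in mKO replicates 1 to 3, 2.06-fold lower (log2 -1.05, SE 0.15, adjusted p = 0.000177), while Rcan3 was low and was not called (log2 0.07, adjusted p = 0.788). The ratio of Rcan2 to Rcan1 counts was 1.02, 2.69 and 1.11 in WT and 0.669, 0.402 and 0.555 in mKO replicates 1 to 3, so the groups did not overlap with or without WT replicate 2. That pair too was chosen after the values were seen, with no count of how often other pairs separate. Among the subunits of calcineurin, the catalytic gene Ppp3cb fell from 129 ± 31.9 to 64 ± 6.75 CPM (log2 -1.02, adjusted p = 0.000487). The catalytic gene Ppp3cc (24.3 ± 4.41 to 13.6 ± 0.408 CPM, log2 -0.84) also fell, and both were lower with library totals as well. The regulatory gene Ppp3r1 fell (log2 -0.41, adjusted p = 0.0216) but had a value of 0.05 with library totals. Ppp3ca, the most abundant catalytic gene by counts, had log2 -0.03 (adjusted p = 0.88). Cabin1, a calcineurin inhibitor gene (log2 0.65), and Gsk3b, a kinase gene whose product opposes NFAT (0.39), rose. These 2 genes and Ppp3cc, Ppp3r1 and Ppp3ca were singled out after their values were seen. Of the calsarcins, Z-disc proteins that tether calcineurin, the fast-fibre genes Myoz1 (2736 ± 341 to 1245 ± 91.8 CPM, log2 -1.14, adjusted p = 2.56e-05) and Myoz3 (17.9 ± 3.03 to 7.64 ± 0.951 CPM, log2 -1.23, adjusted p = 8.22e-05) fell. The slow-fibre gene Myoz2, named after its value was seen, had log2 -0.06 (adjusted p = 0.758).

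Of 20 listed regulators outside these families, 5 fell and 3 rose (median log2 0.02), beside 18.9% and 18.2% over all genes, so the counts do not set the list apart. With library totals 1 fell and 12 rose, beside 6.75% and 49.0% over all genes. Rxrg, a retinoid receptor gene, fell from 32.7 ± 2.7 to 11.7 ± 1.85 CPM (log2 -1.48, adjusted p = 6.09e-06), and Thra, a thyroid hormone receptor gene, fell from 30.9 ± 1.87 to 20.4 ± 1.63 CPM (log2 -0.60, adjusted p = 0.00118). Mef2c, partner of NFAT in slow-gene activation, fell (log2 -0.68, adjusted p = 0.000645) while its paralog Mef2d rose (log2 0.80, adjusted p = 0.000379). With library totals Thra and Mef2c had values of -0.14 and -0.22 and were not called (adjusted p = 0.319 and 0.117).

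The programmes these regulators act on are given for reference. Their lists were written with earlier results of these data known. Over all genes 18.9% were called lower and 18.2% higher, and 6.75% and 49.0% with library totals. Of 18 fast-programme genes, 17 fell and none rose (median log2 -1.10; 16 fell with library totals), led by lowest p by 2310065F04Rik, the noncoding RNA gene of the fast myosin cluster (log2 -3.84), Pvalb (-1.41), Myh4 (-1.57) and Actn3 (-1.30). All 4 of these had an adjusted p of at most 6.15e-06. Of 13 slow-programme genes, 6 rose and 3 fell (median log2 0.64). With library totals 7 rose and 3 fell, and by DESeq2 4 rose and 1 fell. Casq2 rose 4.65-fold, Csrp3 2.88-fold and Myl6b 17.9-fold, the last from 0.603 CPM in WT. Tnnt1, Tnni1 and Atp2a2 rose too. Mb, which encodes the oxygen carrier myoglobin, fell from 4827 ± 1005 to 1355 ± 429 CPM. The other genes that fell, named after their values were seen, were Myl2 (log2 -1.27, adjusted p = 0.00868) and Myl3 (-1.66, adjusted p = 0.0181). Myh7, Myh7b, Tnnc1 and Tpm3 were not called.

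For each called regulator, the 2 annotated genes closest in profile were found by the root mean square difference of log2(CPM + 0.5), centred on the gene's own mean, over the 6 libraries. These distances describe likeness only, since every gene with the same group difference and a small spread lies close. Kat2b and March6 were nearest to Eya4 (differences of 0.0256 and 0.0257), Trim12c and Mrps26 to Eya1 (0.0402 and 0.0416), and Rev1 and Nkap to Tbx15 (0.0288 and 0.0295). Nearest to Sox6 were Nmnat3 (0.0277) and Ubxn10 (0.0318), and to Nfatc1 were Zcwpw2 (0.0225) and Fbxo5 (0.0248). Cdh2 and Atg2a were nearest to Prox1 (0.0831 and 0.0924), and Gtse1 and Myh9 to Vgll2 (0.0565 and 0.0612). Ubxn10, Zcwpw2, Fbxo5 and Gtse1 were under 1 CPM in every library, where the added 0.5 flattens a profile.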

How the data were processed

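The deposited files hold raw counts per Ensembl gene, 1 table per library. RNA came from frozen muscle (Trizol) and the kit was NEBNext Ultra RNA, per the labels' protocols. The submitters' processing notes list STAR 2.5.2b, Trimmomatic 0.36, Subread 1.5.2 with featureCounts, and GRCm38. Strand and multi-mapping settings were not given in the sources used here, so counts of overlapping genes are uncertain. Gene names matched 48970 of 49315 identifiers. The labels name no batch.

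edgeR 4.0.16 (R 4.3.3) was fitted to all 6 libraries with group as the only term, TMM factors, its default expression filter and Benjamini-Hochberg adjustment over 16650 genes. The SE is the log2 change divided by the square root of the F statistic. The fit was tested on simulated counts. RPKM is CPM per kilobase of the exon length in the files. Alternatives were DESeq2 1.42.0, voom of limma 3.58.1, other scalings and filters, a replicate block and leaving out each library. Replicates differed beyond sampling noise (chi-square per degree of freedom 20.9 to 57.7), so none was a copy.

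The members and gene lists were chosen with earlier results of these data known. Named genes are the members, their paralogs, up to 4 genes per list by lowest p, and the nearest profiles. Others are said to be chosen later, except Hnrnpu, the miRNA genes and their hosts, antisense genes at a member, and markers. Markers are given as counts and sums with the levels of a few. A gene was left out of the Six4, Eya and Dach list and is not reported here. Promoters and miRNAs came from RefSeq (GRCm38.p6), where windows of 6 members were searched for 10 motifs, and 3′ UTRs from GENCODE M21.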

Additional observations from a re-analysis of the deposited data

How the results depend on the processing

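With library totals instead of TMM factors, values turned to 0.42 for Six4, 0.05 for Eya1, 0.03 for Eya4 and 0.02 for Tbx15, and Rcan1 was called at 0.78. Called higher and lower were 5 and 1 members, 8159 and 1124 genes in all, 2 and 2 of the Six4, Eya and Dach list, 6 and 0 of Vgll and Tead, 10 higher of calcineurin and NFAT, 12 and 1 of other regulators, and 1 lower of the SoxD, Prox and Tbx list. DESeq2 called 4 slow-programme genes higher and 1 lower, against 6 and 3.

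Without 1 library at a time, Eya4 ranged from -0.55 to -0.35, Prox1 from 0.49 to 0.90, Vgll and Tead calls from 1 to 3 higher and 0 to 1 lower, SoxD, Prox and Tbx calls from 0 to 1 higher, and other regulators from 3 to 5 higher. Sox6 (-0.85 to -0.78), Vgll2 (0.81 to 0.96) and Nfatc1 (0.39 to 0.61) kept direction and call under each alternative fit. The ratio to Six4 gave -0.40 for Tbx15.

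Same-numbered libraries did not deviate together more than others (correlations -0.0107, -0.0195 and 0.0433, against -0.0649 to 0.0671 for differently numbered ones). The labels do not say whether the numbers pair libraries. Correlations over all genes cannot decide it, since an effect shared by few genes would not show. With the replicate block, 5519 genes were called in all against 6166, the same 7 members were called, and 0 Vgll and Tead genes were called lower. Depth limits Prox1 most, at 72 to 290 counts per library.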
